A study of Mus musculus with 8 samples.

Results

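The transcripts described here are those of 7 genes of the renin-angiotensin system, picked by exact gene name from the 55880 genes of the count table. They encode the precursor angiotensinogen (Agt), renin (Ren1), the cell surface peptidases angiotensin-converting enzyme (Ace), glutamyl aminopeptidase (Enpep) and neprilysin (Mme), the main receptor of angiotensin II (Agtr1a) and a protein that binds this receptor (Agtrap). RNA came from small intestinal crypts of mice that had not been irradiated; crypts are the gland-like pits at whose base the stem cells of the gut lining divide. In 4 libraries the mice were labelled miR-29ab1-/-, lacking the linked microRNA genes miR-29a and miR-29b-1, and in 4 they were labelled WT; all mice were given as C57BL/6N. The labels give no age, litter or batch and do not say how the deletion was made, so p-values measure only the spread between these libraries, which may be technical. The 7 genes were selected with the differences between these same libraries already known, so those differences are given as a description and not as a test.

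In the classical pathway renin cuts angiotensinogen, a serpin-family protein secreted mainly by the liver, to release angiotensin I. Angiotensin-converting enzyme removes a pair of residues to give angiotensin II, which acts on vascular tone, on salt balance and on sodium and water uptake in the gut. Glutamyl aminopeptidase takes the first residue off angiotensin II, and neprilysin cuts angiotensin I and many other peptides. In the small intestine all these membrane peptidases sit on the brush border of absorptive enterocytes, where they also digest dietary peptides.

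The microRNAs named by the genotype are shown because the comparison rests on them. The mature sequences are those of RefSeq on GRCm38.p6, written 5′ to 3′ with the seed, bases 2 to 8, in capitals, and both carry the same seed. Mir29a and Mir29b-1 lie on chromosome 6. The same mature miR-29b-3p is also encoded by Mir29b-2, and miR-29c-3p, with this seed too, by Mir29c, both on chromosome 1. The genotype label names neither Mir29b-2 nor Mir29c.
miR-29a-3p: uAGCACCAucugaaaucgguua
miR-29b-3p: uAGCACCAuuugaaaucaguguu
The matching DNA site, TGGTGCT, was absent from the annotated 3′ untranslated regions of all 7 genes, the longest of which was 5698 bases, in Mme. Among 12386 tested genes with such a region of at least 50 bases, 2039, or 16.5%, held the site. This says only that these letters are not in these windows.

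Promoters are shown for angiotensinogen, whose levels did not overlap between the groups, and for the peptidase genes Ace and Enpep. Ace, Enpep and Mme all varied together between libraries, and the promoters of Mme are not shown. Each RefSeq window on GRCm38.p6 runs from 250 bases before to 50 bases after the start of transcription, 5′ to 3′ on the strand of the gene, with matches to the searched motifs in capitals.
Agt, chr8:124569657-124569956, minus strand: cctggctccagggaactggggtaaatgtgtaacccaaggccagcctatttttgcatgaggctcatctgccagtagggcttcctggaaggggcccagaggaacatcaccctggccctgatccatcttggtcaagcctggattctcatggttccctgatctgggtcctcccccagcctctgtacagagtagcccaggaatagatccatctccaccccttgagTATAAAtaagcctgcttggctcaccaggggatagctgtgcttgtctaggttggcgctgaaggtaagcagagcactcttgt
Ace, chr11:105967698-105967997, plus strand: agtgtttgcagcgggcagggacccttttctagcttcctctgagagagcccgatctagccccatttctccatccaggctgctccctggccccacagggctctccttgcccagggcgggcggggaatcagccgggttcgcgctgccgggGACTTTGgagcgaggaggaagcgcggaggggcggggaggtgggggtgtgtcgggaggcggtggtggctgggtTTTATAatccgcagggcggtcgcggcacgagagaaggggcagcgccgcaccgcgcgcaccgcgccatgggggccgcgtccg
Enpep, chr3:129332700-129332999, minus strand: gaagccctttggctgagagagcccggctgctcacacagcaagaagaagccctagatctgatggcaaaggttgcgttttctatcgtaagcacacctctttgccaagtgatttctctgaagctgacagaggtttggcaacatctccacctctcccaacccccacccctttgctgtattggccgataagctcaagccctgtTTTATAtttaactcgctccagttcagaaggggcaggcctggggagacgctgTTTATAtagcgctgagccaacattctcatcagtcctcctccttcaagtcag
On both strands 6 motifs were searched, none sharing bases with another where they matched. They were TATAAA for the promoter box of that name, TTTATNG for caudal homeobox factors, AGATAA for GATA-type zinc finger factors, GTTAAT for HNF1, CAAAGTC for HNF4 and TGTTCT for the glucocorticoid receptor. TATAAA begins 30 bases before the start in Agt, and it is read on the opposite strand 31 bases before the start in Ace and 52 bases and 1 base before it in Enpep. It is found in 13.6% of the 32851 mouse promoter windows. CAAAGTC, found in 4.44% of the windows, is read on the opposite strand 103 bases before the start in Ace. The other 4 motifs had no match in these 3 windows. Ren1 also has TATAAA, 29 bases before its start, whereas none of the motifs matched in the windows of Mme or Agtrap. Ace has another listed start inside the gene, with no match, and the counts, given per gene, do not separate the starts.

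Library totals ranged from 13879472 to 17368666 counts. Mir29a had 0 counts in all 8 libraries, and Mir29b-1 had 2 to 7 counts in each miR-29ab1-/- library against 0 in each WT library, which goes against the genotype labels taken at face value; the groups are therefore named by label (labelled KO and WT). Lncpint, the noncoding gene beside the deleted locus, separated them, with 1831 to 2608 counts in labelled KO libraries against 11 to 16 in WT libraries. Levels in CPM are counts scaled to library totals that were first adjusted by a composition factor per library (TMM). The factor ran from 0.835 in labelled KO replicate 4 to 1.13 in labelled KO replicate 3, and a lower factor gives higher CPM. Summed CPM of 8 crypt base stem cell markers were 1539 to 3995 in labelled KO and 2454 to 4230.2 in WT libraries, and those of 8 Paneth cell markers were 18918 to 60314 and 20772 to 27476. The 18 enterocyte markers were also abundant, at 14081 to 71568 CPM in labelled KO and 17685 to 33630.4 in WT libraries, so the RNA was not from crypt base cells alone. Fibroblast, smooth muscle and endothelial markers summed to at most 17.4, 1.83 and 4.48 CPM in labelled KO and 34.9, 2.32 and 5.43 CPM in WT libraries. Labelled KO replicate 4 had the highest enterocyte sum and the lowest stem cell and Paneth sums of all 8 libraries.

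Angiotensinogen was the member that separated the groups. Agt (ENSMUSG00000031980, chr8:124556534-124569706, minus strand, GRCm38) was at 13.5, 24.0, 8.35 and 16.1 CPM in labelled KO replicates 1 to 4, against 4.58, 5.32, 6.25 and 5.77 CPM in WT replicates 1 to 4. The lowest labelled KO library lay above the highest WT library, and the labelled KO libraries were spread more widely. These levels rest on 142 to 370 counts in labelled KO and 75 to 107 counts in WT libraries. By edgeR this was 2.82-fold, a log2 difference of 1.50 ± 0.30, where the SE is approximated from the F statistic. Leaving out single libraries moved it between 1.20, without labelled KO replicate 2, and 1.70, without labelled KO replicate 3. Scaled also to gene length, as FPKM (fragments per kilobase of gene, scaled to library size), Agt averaged 8.14 ± 3.40 in labelled KO and 2.88 ± 0.380 in WT crypts (SD, n = 4 each). That placed it between ranks 3828 and 7760 of all genes in labelled KO libraries and between 8699 and 9869 in WT libraries. All 8 Paneth cell markers also lay above 0, with a median log2 fold change of 0.49, 2 of them at an unadjusted edgeR p under 0.05 and none past the threshold. The 6 tested B and plasma cell markers all lay below 0, with a median of -0.68, 2 of them at an unadjusted edgeR p under 0.05 and none past the threshold. Of all genes tested, 52% lay above 0 and 2.7% had an unadjusted edgeR p under 0.05. Enterocyte markers had 16 of 18 above 0, and T cell markers 6 of 7 below. Labelled KO replicate 2 was the highest of the 8 libraries in both Agt and the Paneth sum. Labelled KO replicate 4, at 16.1 CPM of Agt, had the lowest Paneth sum. The part of any of these lists in the Agt difference was not tested. In bulk RNA a larger number of cells that make a transcript and more of it per cell cannot be told apart.

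Of the members, 5 passed the expression filter, which Agtr1a and Ren1 did not. Agt alone of the 5 had groups that did not overlap, beside 1.56% of the 14897 genes tested. At an adjusted p under 0.05, edgeR called 0 of the 5 (0.0201% of all genes tested). At that threshold limma-voom called 0 of the 5, beside 2 of all 14897 genes. By unadjusted edgeR p under 0.05 there was 1 of the 5, Agt (2.7% of all genes). DESeq2 called 1, Agt, beside 0.109% of the 19302 genes to which it gave an adjusted p. The authors' deposited table gives Agt a log2 fold change of 1.50 and an adjusted p under 0.05, as it does for 0.0787% of 26675 genes, and no other member. Because the members were chosen on this comparison, nothing is read from these counts.

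**Figure D1:**
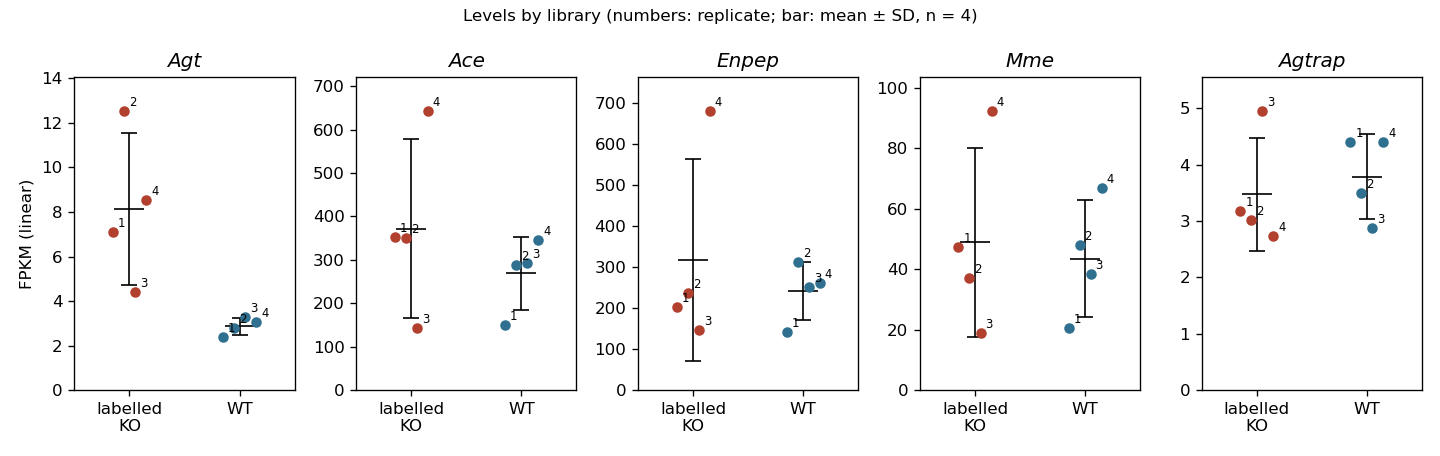
Level of each expressed member in FPKM (linear axes from 0, one scale per gene), with 1 point per library numbered by replicate, labelled KO left of WT, and bars for the mean ± SD (n = 4 each). The Agt points of the labelled KO libraries, 4.39 to 12.5, all lie above those of the WT libraries, 2.38 to 3.28, while the groups overlap for the other 4 genes.

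The membrane peptidases were abundant and overlapped between the groups. Ace (ENSMUSG00000020681, chr11:105967945-105989964, plus strand) was at 1877, 1871, 762 and 3399.7 CPM in labelled KO replicates 1 to 4, against 804, 1527, 1558 and 1834 CPM in WT replicates 1 to 4. Labelled KO replicate 4 was the highest of the 8 libraries and labelled KO replicate 3 the lowest, close to WT replicate 1. The log2 fold change was 0.47 (SE 0.43, edgeR) and fell to 0.071 without labelled KO replicate 4.

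Enpep (ENSMUSG00000028024, chr3:129269175-129332720, minus strand) was at 963, 1124, 694 and 3207 CPM in labelled KO replicates 1 to 4, against 683, 1475, 1193 and 1240.5 CPM in WT replicates 1 to 4. A single library, labelled KO replicate 4, lay above every WT library, and the other 3 lay within the WT range. The log2 fold change of 0.38 (SE 0.47, edgeR) turned to -0.31 without that library.

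Mme (ENSMUSG00000027820, chr3:63241537-63386030, plus strand) was at 549, 432, 217 and 1065 CPM in labelled KO replicates 1 to 4, against 240.4, 555, 447 and 775 CPM in WT replicates 1 to 4. The lowest library of all was again labelled KO replicate 3 and the highest labelled KO replicate 4. The log2 fold change of 0.17 (SE 0.48, edgeR) was -0.34 without labelled KO replicate 4, -0.067 without WT replicate 1 and 0.44 without WT replicate 4.

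Per length, Ace and Enpep were at a similar level. Ace had 372 ± 206 FPKM in labelled KO and 269 ± 83.6 in WT crypts, and Enpep 317 ± 246 and 242 ± 71.5 (SD, n = 4 each). Ace exceeded Enpep in 2 of 4 labelled KO and 3 of 4 WT libraries, so their order did not hold from library to library. Mme, at 48.8 ± 31.3 FPKM in labelled KO and 43.4 ± 19.3 in WT crypts (SD, n = 4 each), was below both in all 8 libraries. The ratio of Ace to Mme in FPKM stayed between 6.97 and 9.46 in labelled KO and between 5.17 and 7.61 in WT libraries. Ace ranked 90 to 287 among all genes by FPKM in labelled KO and 118 to 272 in WT libraries.

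The receptor side was low. Agtrap (ENSMUSG00000029007, chr4:148077061-148088031, minus strand), whose product binds the angiotensin II receptor and promotes its uptake into the cell, was at 13.6, 13.0, 21.1 and 11.6 CPM in labelled KO replicates 1 to 4, against 18.9, 14.8, 12.3 and 18.7 CPM in WT replicates 1 to 4. The groups overlapped, and the highest library was labelled KO replicate 3, the one lowest in Ace and Mme. The log2 fold change was -0.13 (SE 0.22, edgeR), with a range of -0.35, without labelled KO replicate 3, to -0.021, without labelled KO replicate 4. Agtrap had 3.48 ± 1.01 FPKM in labelled KO and 3.79 ± 0.747 in WT crypts (SD, n = 4 each). In FPKM, Agt exceeded Agtrap in 3 of 4 labelled KO and 1 of 4 WT libraries, and both lay below Mme in all 8 libraries.

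Agtr1a (ENSMUSG00000049115, chr13:30336441-30382867, plus strand) and Ren1 (ENSMUSG00000070645, chr1:133350510-133360325, plus strand) were at the limit of detection. Each had 0 counts in the 4 labelled KO libraries, which allows up to 0.0498 CPM over the group by a floor of 3 counts. Each had 2 counts in WT replicate 1 and 0 in the other 3 WT libraries. No fold is given, since both groups are at or under the floor, and the floor covers counting error only. WT replicate 1 was also the library with the highest sum of fibroblast markers, 34.9 CPM, and the part of stromal RNA in these few counts was not tested.

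**Figure D2:**
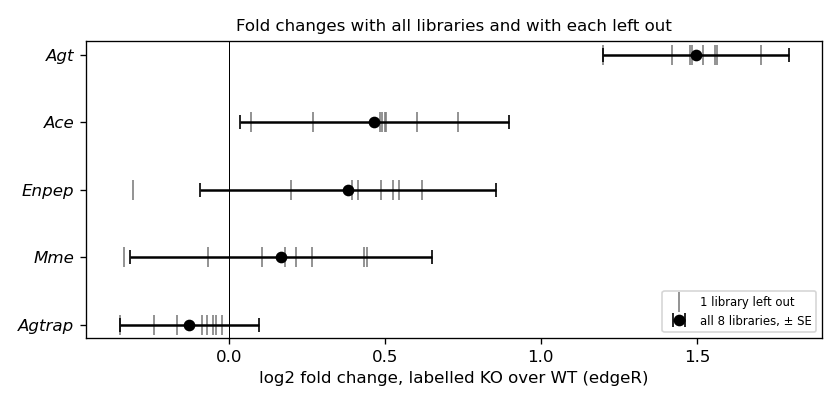
Log2 fold change of each expressed member, labelled KO over WT (edgeR): black points with all 8 libraries ± SE, grey ticks with 1 library left out. The 8 ticks of Agt run from 1.20 to 1.70, while those of Enpep and Mme cross 0 and reach -0.31 and -0.34 without labelled KO replicate 4.

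The 3 peptidases varied between libraries together with enterocyte markers. Over the 8 libraries, log2 CPM was set against the mean of the 18 enterocyte markers, as part of 15 relations among these values, with two-sided exact permutation p-values and Benjamini-Hochberg adjustment over the 15. Ace had a Pearson r of 0.98 (exact permutation p = 0.00402, adjusted p = 0.0100) and a Spearman rho of 0.60 (p = 0.132, adjusted p = 0.220). Enpep had r = 0.94 (exact permutation p = 0.000595, adjusted p = 0.00893) and rho = 0.88 (p = 0.00724, adjusted p = 0.0543). Mme had r = 0.93 (exact permutation p = 0.00355, adjusted p = 0.0100) and rho = 0.71 (p = 0.0576, adjusted p = 0.173). Without the 2 libraries farthest from the median of the marker mean, labelled KO replicates 3 and 4, r was 0.92 for Ace, 0.91 for Enpep and 0.80 for Mme. WT replicate 1, at 9.27 log2 CPM, was then the only library apart from the other 5, whose marker means lay between 10.17 and 10.38; r over those 5 alone was not computed.

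Agtrap ran the other way, with r = -0.83 (exact permutation p = 0.00397, adjusted p = 0.0100) and rho = -0.79 (p = 0.0279, adjusted p = 0.105), and r = -0.61 without the same 2 libraries. For Agt the relation did not pass, with r = 0.46 (exact permutation p = 0.254, adjusted p = 0.293) and rho = 0.31 (p = 0.462, adjusted p = 0.533), and r = 0.43 without them. The enterocyte marker mean was 10.21 ± 0.92 log2 CPM in labelled KO and 10.03 ± 0.52 in WT crypts (SD, n = 4 each). As deviations from the group means, r was 0.98 for Ace, 0.94 for Enpep, 0.93 for Mme, -0.82 for Agtrap and 0.69 for Agt. Without labelled KO replicate 3 and WT replicate 1, the farthest on that scale, these were 0.92, 0.99, 0.77, -0.40 and -0.017, so the values of Agt and Agtrap rest on those libraries.

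Between the peptidases themselves, Ace and Mme had r = 0.94 (exact permutation p = 0.00278, adjusted p = 0.0100; rho = 0.69, p = 0.0694, adjusted p = 0.173). For Enpep and Mme r was 0.88 (exact permutation p = 0.00280, adjusted p = 0.0100; rho = 0.88, p = 0.00724, adjusted p = 0.0543). For Ace and Enpep it was 0.89 (exact permutation p = 0.00546, adjusted p = 0.0117; rho = 0.52, p = 0.197, adjusted p = 0.246). Without the 2 farthest libraries in each case these were 0.84, 0.78 and 0.71. Ace and Agtrap had r = -0.79 (exact permutation p = 0.0128, adjusted p = 0.0240; rho = -0.79, p = 0.0279, adjusted p = 0.105), which was -0.42 without labelled KO replicate 3 and WT replicate 1, on which it rests. By Pearson's r, 8 of the 15 relations passed the adjustment, none of them with Agt, and 0 passed by Spearman's rho. As deviations from the group means 8 passed by r and 7 by rho, among them Agt with Agtrap by rho alone (rho = -0.86, permutation p = 0.0107, adjusted p = 0.0268; r = -0.73, permutation p = 0.0359, adjusted p = 0.0599, and r = -0.20 without labelled KO replicate 3 and WT replicate 1). Deviations sum to 0 within each group, while the permutations ran freely over all 8 libraries. The p-values of the deviations may therefore be too small. All the values of these relations share library depth and composition.

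**Figure D3:**
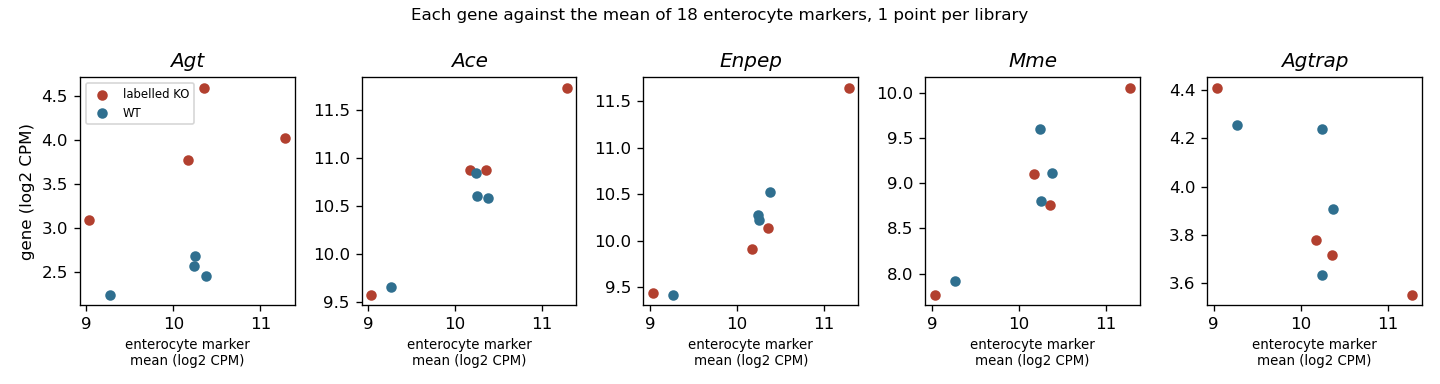
Log2 CPM of each expressed member (vertical) against the mean log2 CPM of 18 enterocyte markers (horizontal), with 1 point per library, red for labelled KO and blue for WT. Ace, Enpep and Mme climb with the marker mean (r of 0.98, 0.94 and 0.93) and Agtrap descends (r = -0.83), while the labelled KO points of Agt lie above its WT points across the range.

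The genes whose pattern was most like that of each member over the 8 libraries were taken from 11306 protein-coding genes by Pearson's r of log2 CPM, as a description. For Agt they were Gm32742 (r = 0.98), Gpr182, a G protein-coupled receptor gene (0.96), and Klf15, a Krüppel-like transcription factor gene (0.94). Klf15 was at 11.4 to 26.0 CPM in labelled KO and 7.01 to 11.1 CPM in WT libraries, and Gm32742 at 16.9 to 52.0 and 11.2 to 14.2 CPM. Gpr182 was low, at 2.06 to 3.38 CPM in labelled KO and 1.53 to 2.01 CPM in WT libraries. As deviations from the group means r was 0.96, 0.91 and 0.79 for Gm32742, Gpr182 and Klf15, lowest for Klf15.

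For Ace the closest were Dennd3, a regulator of Rab proteins (0.99), Guca2b, the gene of the gut peptide uroguanylin (0.99), and Slc47a1, a cation exporter (0.98). For Enpep they were Nr1h3, the nuclear receptor LXR alpha (0.996), Slc16a5, of the monocarboxylate transporter family (0.99), and Anks4b, a brush border protein gene (0.99). For Mme they were Zfp944 (0.98), Hsd3b3, a steroid dehydrogenase gene (0.98), and Slc39a14, a zinc transporter gene (0.97). For Agtrap they were Ncapd3, a condensin subunit gene of dividing cells (0.98), Gabpb2, a subunit gene of a transcription factor (0.97), and Tctn2, a gene of primary cilia (0.97).

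The other genes of the system were read from 3 lists, chosen with earlier results of these data known. Of 38 genes, 27 passed the filter, 17 with a log2 fold change above 0 and 10 below. None passed the edgeR threshold, beside 0.0201% of all genes tested, and 0 had an unadjusted edgeR p under 0.05, beside 2.7%. DESeq2 called 0, beside 0.109% of all genes to which it gave an adjusted p. Limma-voom called 0, beside 2 of all 14897 genes. At shares this low, nothing is read from 0 calls among 27 genes. Their median log2 fold change was 0.036, against 0.011 over all 14897 genes tested, of which 52% lay above 0. Estimates for these genes are edgeR log2 fold changes, labelled KO over WT.

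In the list of 17 genes made up of the prorenin receptor and further peptidases, 13 were tested, 6 above 0 and 7 below. Their median was -0.0074. Anpep, aminopeptidase N of the brush border, was the most abundant at 1825 ± 1538 FPKM in labelled KO and 1273 ± 340.0 in WT crypts (SD, n = 4 each). The edgeR estimate for it was 0.51 (SE 0.53, adjusted p = 0.994), and -0.25 without labelled KO replicate 4. Klk1, tissue kallikrein, had -0.19 (SE 0.25), with -0.35 without WT replicate 1 and 0.017 without WT replicate 3. Atp6ap2, the prorenin receptor and a part of the vacuolar proton pump, had 0.0054 (SE 0.11) at 45.2 ± 3.91 FPKM in labelled KO and 44.9 ± 3.88 in WT crypts (SD, n = 4 each). Of the mast cell and neutrophil enzymes in this list, the chymase Cma1 had 0 counts in labelled KO and 1 in WT libraries, and Ctsg had 0 in both. The carboxypeptidase Cpa3 had 37 counts in labelled KO and 10 in WT libraries, and the labelled KO total lay mostly in replicate 3. Its level there was 2.00 CPM, against at most 0.078 CPM in the other labelled KO libraries and up to 0.336 CPM in WT libraries. The mucosal mast cell proteases Mcpt1 and Mcpt2, counted among the cell markers, were detected. Mcpt1 was at 0.714 to 45.2 CPM in labelled KO and 3.38 to 7.88 CPM in WT libraries, and Mcpt2 at 0.260 to 17.1 and 0.751 to 3.04 CPM, with overlapping groups. Labelled KO replicate 3 also had the highest sum of the myeloid and mast cell markers, 74.4 CPM.

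Of 11 further receptors and partners, 7 were tested, with a median of 0.085. The receptors themselves were at or near 0, with 0 counts in all 8 libraries for Agtr1b, Agtr2 and Mrgprd, and 14 counts in each group for Mas1. The tested genes were partners of the receptors and signalling proteins. Gna11, a G protein alpha subunit, had -0.010 (SE 0.20), Grk2, a receptor kinase, 0.085 (SE 0.13), and Arrb1, a beta-arrestin, 0.036 (SE 0.19). With single libraries left out, Gna11 ran from -0.14 to 0.067 and Arrb1 from -0.059 to 0.18. Mtus1, which encodes proteins that bind the angiotensin II type 2 receptor, had 0.19 (SE 0.13), and Arrb2, another beta-arrestin, 0.14 (SE 0.21, edgeR adjusted p = 0.994 for both).

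The aldosterone axis, through which angiotensin II acts on sodium transport, had 7 of 10 genes tested, 6 above 0, with a median of 0.10. Sgk1, a kinase that raises sodium transport, was at 30.7, 68.1, 20.7 and 256 FPKM in labelled KO replicates 1 to 4, against 12.6, 52.4, 36.3 and 24.3 in WT replicates 1 to 4. Labelled KO replicate 4 stood far above the other libraries, and the edgeR estimate of 1.57 (SE 0.77, adjusted p = 0.994) was 0.35 without it. Nr3c2, the mineralocorticoid receptor gene, had 0.30 (SE 0.23), and 0.083 without that library. Slc9a3, the apical sodium-proton exchanger, had -0.091 (SE 0.21), with -0.27 without labelled KO replicate 2 and 0.065 without WT replicate 2. Hsd11b2, which shields the mineralocorticoid receptor from glucocorticoids, had 0.18 (SE 0.27), with 0.022 without labelled KO replicate 3 and 0.35 without labelled KO replicate 1. Cyp11b2, the aldosterone synthase gene, had 1 count in labelled KO and 0 in WT libraries.

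The other peptidases of the brush border mostly had estimates above 0, and those of Anpep and the 3 others named next turned below 0 without labelled KO replicate 4. Of 11 genes, which include Anpep, 10 were tested, 9 of them above 0 with a median of 0.39, and edgeR, DESeq2 and limma-voom called 0. Of all genes, edgeR called 0.0201%, DESeq2 0.109% and limma-voom 2 genes, so nothing is read from these counts of 0. Only Tmprss15 had an unadjusted edgeR p under 0.05, beside 2.7% of all genes tested. Naaladl1, a peptidase of the apical membrane, had 0.32 (SE 0.54), and Mep1b and Mep1a, the meprin subunits, had 0.39 (SE 0.41) and 0.80 (SE 0.63, edgeR adjusted p = 0.994 for all). Without labelled KO replicate 4 these were -0.29, -0.077 and -0.19. Tmprss15, enteropeptidase of the duodenum, ran the other way at -3.11 (SE 1.11, edgeR adjusted p = 0.994). It was listed at 0.244, 0, 0.434 and 0.0748 FPKM in labelled KO replicates 1 to 4, against 0.230, 4.30, 0.360 and 1.80 in WT replicates 1 to 4, so the difference lay in WT replicates 2 and 4. Its log2 fold change was -2.05 without WT replicate 2 and -3.98 without labelled KO replicate 3. Enterocyte markers had 16 of 18 genes above 0 with a median of 0.31 and none past the threshold, and the part of enterocyte content in the values of the peptidases was not tested.

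**Figure D4:**
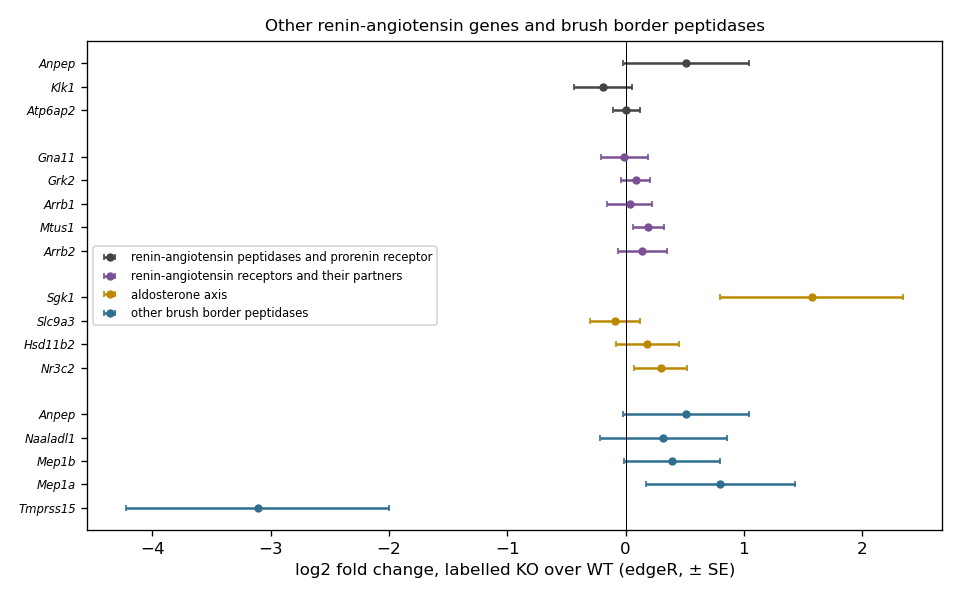
Log2 fold change, labelled KO over WT (edgeR, ± SE), of the genes named in the text from the 3 renin-angiotensin lists and from the other brush border peptidases, each list ordered by mean FPKM from top to bottom. Anpep stands in both its lists, and Sgk1 at 1.57 and Tmprss15 at -3.11 lie farthest out, with wide errors.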

How the data were processed

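Counts per gene and library, whole numbers deposited by the authors for 8 libraries, were used as they stand. The authors' FPKM equal those counts over gene length times a constant per library, which was tested on the values. From the authors' own comparison, the deposited log2 fold change and p-values of members are quoted by name; the deposited group means, a signal of counts over size factors, enter no test. Per the submitters' processing notes, HISAT2 and DESeq2 were used, with no version stated; which tool counted reads, with which strand setting and on which build, is not given in the sources for this work. RNA was taken up in TRIzol and, per the labels' protocols, the library kit marks strand. Coordinates of all 7 members, and of 99.5% of 55144 shared genes, equal those of GENCODE M21 (GRCm38). Where other genes overlap a member (Gm11651 with Ace, 19 counts in labelled KO and 21 in WT libraries; Gm42628 with Enpep, 168 and 174), reads of the opposite strand may not be told apart.

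The test was that of edgeR 4.0.16, run in R 4.3.3 (robust quasi-likelihood test, TMM, filterByExpr, Benjamini-Hochberg over all genes tested, threshold 0.05). CPM use TMM library sizes, and log2 CPM a prior count of 2. Totals of 13879472 to 17368666 counts limit low genes, where a floor of 3 counts covers counting error only, since reads carry no molecular identifiers. Other settings tried were DESeq2 1.42.0, limma-voom (limma 3.58.1), RLE size factors, a prior count of 0.5, no filter or one of 5 CPM in at least 4 libraries, the replicate number as a block, and each library left out. The members and lists were chosen with earlier results of these data known. Named are all members; per pathway or brush border list any gene past the threshold, the 4 of highest mean FPKM and the 2 of largest absolute log2 fold change; per tested member the 3 most alike protein-coding genes with a mean log2 CPM above 1. Genes outside this rule (Cma1, Ctsg, Agtr1b, Agtr2, Mrgprd, Mas1, Cyp11b2, Cpa3, Mcpt2) were named after their counts were seen, and some list genes are counted but not reported here by name. The edgeR and DESeq2 tests were checked on counts simulated with the same fixed dispersion for every gene, not one estimated from these libraries. That check does not show how the tests behave at the spread seen here. Libraries within a group all differed by more than sampling noise (lowest chi-square over its degrees of freedom 28.9). Marker lists not printed in the report had summed CPM of 7630 to 10534 in labelled KO and 6999 to 12012 in WT libraries for goblet cells, 238 to 635 and 317 to 504 for enteroendocrine cells, 35.1 to 72.9 and 35.9 to 88.4 for T cells, 22.8 to 52.1 and 25.8 to 142 for B and plasma cells, and 12.6 to 74.4 and 15.7 to 27.3 for myeloid and mast cells.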

Additional observations from a re-analysis of the deposited data

How the results depend on the processing

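The count of all genes called was 3 with edgeR, 21 with DESeq2 and 5 with no filter, and 2 to 3 when single libraries were left out; DESeq2 called 1 member, Agt, and edgeR 0 under every alternative. With the replicate number as a block, 2 genes and 0 members were called, and the log2 fold change of Agt was 1.41. Deviations of same-numbered libraries correlated at -0.44 to 0.15 over 4 pairs, and 1 of 8 libraries correlated best with its own number. These values gave no sign that the numbers pair the samples, though a weak shared effect of litter or batch could go unseen in them. The counts of pathway and brush border genes called were 0 throughout. All 70 log2 fold changes of the 5 tested members under these alternatives lay within 1 SD between replicates of the main value. Leaving out a single library can hardly move a group mean that far, so nothing about stability is read from this. The estimates of Ace, Enpep and Mme rest largely on labelled KO replicate 4, without which that of Enpep went from 0.38 to -0.31. By Pearson's r, 8 member relations passed the adjustment under RLE size factors, a prior count of 0.5 and deviations from group means alike. By Spearman's rho 0 passed under the first 2 of these settings and 7 as deviations, whose p-values may be too small. Depth limits Agtr1a and Ren1, at 2 counts or fewer per library.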

Other observations

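Per 1000 CPM summed over the 18 enterocyte markers, a scaling chosen after the data were seen, Ace had 55.2 ± 7.22 CPM in labelled KO and 49.8 ± 7.13 in WT crypts, Enpep 40.0 ± 8.35 and 40.0 ± 3.08, Mme 15.5 ± 2.69 and 17.3 ± 5.60, and Agtrap, which ran opposite to the markers, 0.627 ± 0.596 and 0.626 ± 0.314 (SD, n = 4 each). Agt had 0.467, 0.695, 0.593 and 0.225 in labelled KO replicates 1 to 4, against 0.259, 0.158, 0.192 and 0.190 in WT replicates 1 to 4. On this scale 3 labelled KO libraries stayed above all WT libraries and labelled KO replicate 4, the library richest in enterocyte markers, fell below WT replicate 1.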
